A study of Homo sapiens with 6 samples.

Results

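PCNT, AKAP9, CEP250, CEP350, CEP290 and PCM1 encode large coiled-coil proteins of the human centrosome, and the peaks of N6-methyladenosine (m6A) in their transcripts are described here. A region is a stretch of the genome with overlapping peaks on 1 strand in any of 3 peak lists. Of 25737 regions in all, 69 had peaks centred in the hg19 intervals of these 6 genes on the gene's own strand. They held 62 of the 21286 peaks of MeRIP 1, 53 of the 19851 of MeRIP 2 and 56 of the 20010 of MeRIP 3. PCNT was picked because an earlier look at these lists had shown a chain of 16 regions in it that recurred in every list, so its recurrence is a description and carries no test. The other 5 genes were added with results of these data known. The intervals were chromosome 21 from 47744030 to 47865690 on the plus strand for PCNT (gene ID 5116), chromosome 7 from 91570180 to 91739987 on the plus strand for AKAP9 (10142), chromosome 20 from 34042980 to 34099804 on the plus strand for CEP250 (11190), chromosome 1 from 179923900 to 180084015 on the plus strand for CEP350 (9857), chromosome 12 from 88442790 to 88535993 on the minus strand for CEP290 (80184), and chromosome 8 from 17780360 to 17885478 on the plus strand for PCM1 (5108).

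The samples were IP and input libraries of wild-type HEK293T cells, 6 in all, from 3 repeats of 1 MeRIP-seq experiment. HEK293T is a line from human embryonic kidney with the large T antigen of SV40, and the labels name no treatment. In MeRIP-seq, RNA fragments are pulled down with an antibody to m6A (IP) and set against RNA that was not pulled down (input), and each repeat gave 1 list of peaks. Nothing in the labels ties the repeats to separate cultures, and the spread between lists may be technical only.

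The centrosome organises microtubules around a pair of centrioles. PCNT (pericentrin) and AKAP9 (also AKAP450) are scaffolds that share a C-terminal centrosome-targeting domain and bring the γ-tubulin nucleators of microtubules to the pericentriolar material or, for AKAP9, also to the Golgi. CEP250 (C-Nap1) tethers the proximal ends of the centrioles to each other, and CEP350 anchors microtubules at the centriole. PCM1 builds the centriolar satellites that carry cargo to the centrosome, and CEP290 works in the transition zone of the cilium. m6A is placed on mRNA mostly by METTL3 with METTL14, and it is known to be frequent in long exons and near stop codons.

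Each peak carries a score, the authors' own value for that peak, which started at 50 and reached 3100 in many peaks. The few scores above 3100, up to 3233, were counted as 3100, called the ceiling here. Its range is that of a MACS score, a scaled negative log10 of a p-value, but no header states this. A ratio of scores is thus not a fold of methylation. How far the score depends on the amount of the transcript was not tested, since the lists hold no level of RNA. Read depth is unknown from such lists. Exons, introns and UTRs were not assigned, since no hg19 annotation was used here.

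PCNT and CEP250 were densely covered by recurrent regions, while AKAP9, CEP350, CEP290 and PCM1 were sparsely covered. Regions with a peak in all 3 lists numbered 22 in PCNT, 15 in CEP250, 7 in CEP350, 3 in AKAP9, 1 in PCM1 and 0 in CEP290. Per 100 kb of interval this was 18.1 in PCNT and 26.4 in CEP250, against 4.37 in CEP350, 1.77 in AKAP9 and 0.951 in PCM1. Regions in all 3 lists covered 10.3% of the CEP250 interval and 5.74% of the PCNT interval, and 3.13% or less of each of the other 4. The order of the genes therefore did not follow their length: CEP250 has the shortest interval of the 6 and AKAP9 the longest. These densities are per length of the whole interval, introns included, and were not measured along the mature transcript. No density over the whole series stands beside them, and PCNT was picked for its chain of recurrent regions.

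**Figure D1:**
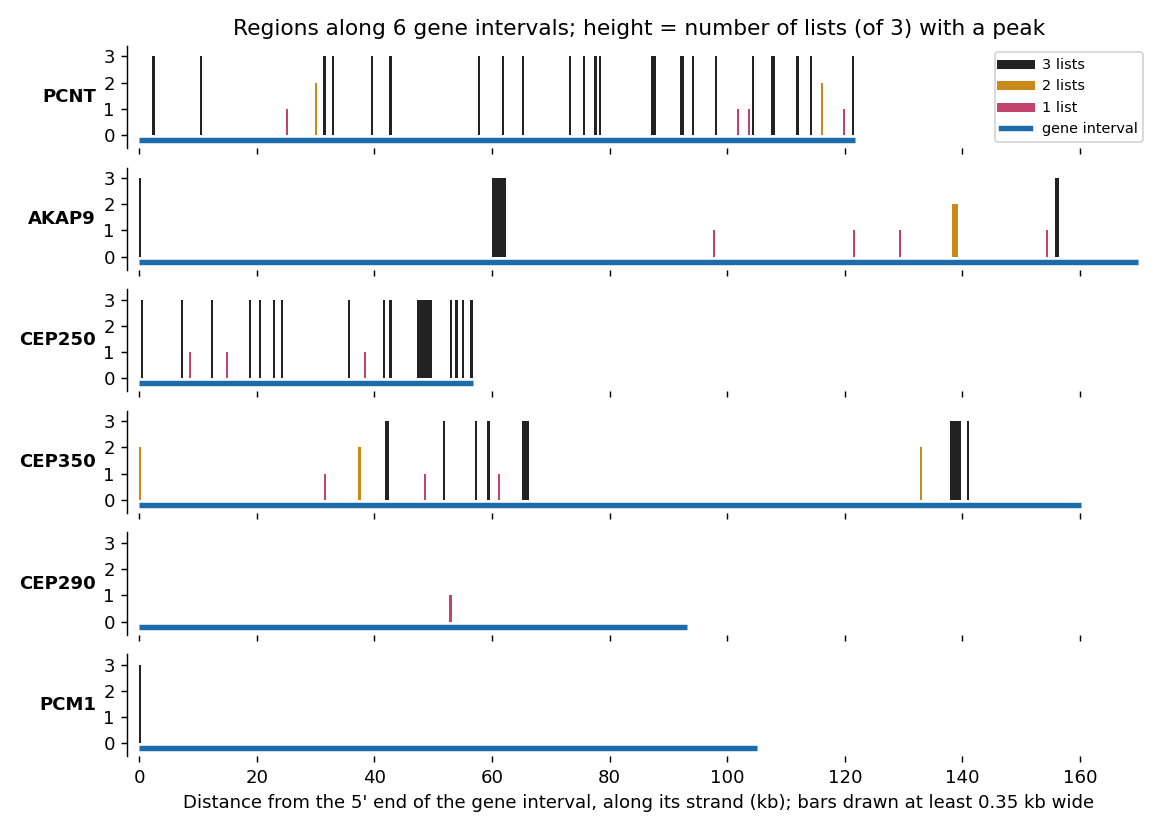
Regions along the 6 gene intervals, drawn from the 5′ end of each interval on its own strand (x axis, kb). The height and colour of a bar give the number of lists, of 3, with a peak. PCNT has 22 and CEP250 has 15 bars of full height, while CEP290 has a single bar from 1 list and PCM1 a single bar at its 5′ end.

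Recurrence was read against the whole series. In all 6 genes together, 48 of 69 regions (69.6%) were in all 3 lists, 6 were in 2 lists and 15 in 1 list, against 59.3% of all regions in all 3 lists. PCNT, which was picked for this measure, had 22 of 28 (78.6%), and the other 5 genes had 26 of 41 (63.4%), a share near that of all regions. Among them CEP250 had 15 of 18, CEP350 had 7 of 13 and AKAP9 had 3 of 8. The genes thus spread on both sides of the background share.

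The 5′ ends differed between the genes in whether a peak began there. AKAP9, CEP350 and PCM1 had a region starting within 9 bp of the interval's start, whereas the first region of PCNT on its strand began 2.26 kb inside. The windows around the annotated starts of AKAP9, CEP350 and PCNT are shown for that reason, from RefSeq on GRCh38.p14, all on the plus strand, 5′ to 3′. They run from 250 bases before the start (lower case) to 50 bases after it (capitals). The table held 4 of the 6 members, and these windows were not aligned to the hg19 peaks, so whether a peak covers the capital bases was not tested.
AKAP9, chr7:91940612-91940911: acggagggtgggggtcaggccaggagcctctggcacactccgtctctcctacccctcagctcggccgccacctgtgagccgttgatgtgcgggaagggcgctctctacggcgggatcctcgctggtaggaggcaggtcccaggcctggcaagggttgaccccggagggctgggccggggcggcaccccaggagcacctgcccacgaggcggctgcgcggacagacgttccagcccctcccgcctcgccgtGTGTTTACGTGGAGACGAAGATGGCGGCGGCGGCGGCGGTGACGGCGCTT
CEP350, chr1:179954560-179954859: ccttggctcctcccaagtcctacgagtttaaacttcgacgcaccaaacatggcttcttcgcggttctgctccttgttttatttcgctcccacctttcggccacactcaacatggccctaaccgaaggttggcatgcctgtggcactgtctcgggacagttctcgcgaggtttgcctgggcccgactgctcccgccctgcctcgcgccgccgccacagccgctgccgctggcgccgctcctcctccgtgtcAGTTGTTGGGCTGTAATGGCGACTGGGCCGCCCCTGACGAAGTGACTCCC
PCNT, chr21:46323906-46324205: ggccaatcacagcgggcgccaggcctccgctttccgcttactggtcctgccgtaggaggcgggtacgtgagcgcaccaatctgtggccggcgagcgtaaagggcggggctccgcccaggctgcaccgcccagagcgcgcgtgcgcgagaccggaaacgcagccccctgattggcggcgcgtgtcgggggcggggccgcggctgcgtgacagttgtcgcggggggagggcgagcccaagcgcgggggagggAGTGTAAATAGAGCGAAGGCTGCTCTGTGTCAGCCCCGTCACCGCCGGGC

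The letters GGAC, the core of the motif at which METTL3 with METTL14 most often methylates, were searched in the capital bases on both strands (as GGAC and GTCC, counted separately). Neither occurred in any of the 3, while 33.5% of 35116 RefSeq windows held at least 1 of them in those 50 bases. Only GGAC would stand in the RNA of the gene's own strand, and 18.9% of the windows held it there. In the whole window, most of which lies before the annotated start, AKAP9 and CEP350 had 1 GGAC and 1 GTCC each and PCNT had 1 GTCC. Of all windows, 87.4% had either and 66.3% had GGAC. The capital bases were 68% G or C in AKAP9, 62% in CEP350 and 62% in PCNT, with a median of 60% over all windows.

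At the start of PCNT, a region on the opposite strand overlapped the first 395 bp of the interval. It was 3488 bp wide, from 47740937 to 47744424 on chromosome 21, minus strand, and stood at the score ceiling in every list. Its centre lay outside the interval and it is not counted as a member. None of the other 5 intervals had an opposite-strand region. How strand was set, from the library or from an annotation, is stated in no source used here.

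Within PCNT, scores rose and fell along the gene. The first region, on chromosome 21 at 47746291 to 47746503, scored 1005, 839 and 1184 in MeRIP 1, 2 and 3. Region 2, at 47754311 to 47754682, scored 547, 501 and 562, the closest agreement of any PCNT region below the ceiling. Then followed 20.7 kb without a region in all 3 lists, the longest such stretch of the gene, in which only region 3 (MeRIP 3 alone, 140) and region 4 (150 in MeRIP 1 and 106 in MeRIP 3) were found. Regions are numbered here along the strand, from 1 to 28 in PCNT.

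Scores then climbed steeply over a short distance. Region 5, at 47775367 to 47775541, scored 221, 255 and 280 in MeRIP 1, 2 and 3. Region 6 began 1.35 kb further on and scored far higher in each list, with 2849, 2203 and 3151, the last of which counts as 3100 in every comparison. Regions 7 and 8, at 47783395 to 47783849 and 47786499 to 47787054, were at the ceiling in all 3 lists. In all, 6 of 22 PCNT regions (27.3%) were at the ceiling in every list, against 18.9% of all regions found in all 3 lists. The other 4 were regions 11, 12, 17 and 23, which lay 65.1, 73.1, 92.0 and 107.4 kb into the interval.

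The chain for which PCNT was picked ran from region 9 to region 28, on chromosome 21 at 47801609 to 47865682. Its 16 regions lay within 10 kb of one another over 64.1 kb, and the chain ended 8 bp before the end of the interval. Only 2 of 10843 chains in the series held more regions, but 8299 of the chains were single regions and 210 held 5 or more. This rank depends on the gap allowed. With gaps of at most 5 kb, 80 of 12371 chains held more regions than the longest of PCNT, and with 20 kb, 1 of 9248. The 12 other chains of 10 or more regions spanned 33.0 to 71.7 kb (median 40.7), and 11 of them were shorter than that of PCNT. In regions per 10 kb the PCNT chain was less dense than 9 of the 12. The median width of its regions was 201.5 bp, between the 151.5 and 290 bp of the others (median 169.5 bp), and 4 of its 16 regions were at the ceiling in every list, against a median of 19.1% (0 to 63.6%) over the 12.

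The weakest recurrent regions of PCNT sat inside this chain, next to some of the strongest. Region 12, at 47817179 to 47817408, was at the ceiling in all 3 lists, and region 13, which began 2.10 kb after it, scored 603, 310 and 510. Region 14, at 47821465 to 47821635, had only 69.3, 127 and 59.8 in MeRIP 1, 2 and 3, and region 15, at 47822245 to 47822397, had 69, 76.4 and 86.1. The lowest score in the lists is 50. Region 16, at 47831103 to 47831981, was the widest of PCNT with 879 bp and scored 2261, 2800 and 2884. It was followed by region 17, of 771 bp, at the ceiling in all 3 lists. The chain thus joins 2 strong stretches across a weak pair of regions. With scores of 100 or more, a setting chosen after seeing the data that drops regions 14, 15 and 28, the longest PCNT chain held 8 regions, and with gaps of at most 5 kb it held 4.

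**Figure D2:**
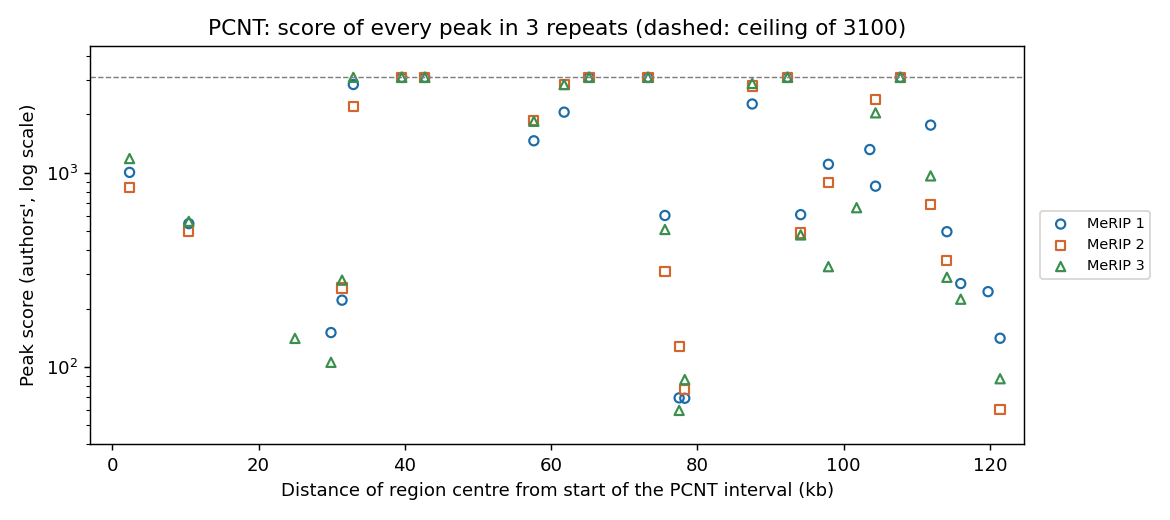
Score of every PCNT peak (y axis, log scale, the authors' value) against the distance of its region's centre from the start of the interval (x axis, kb), with 1 symbol per list and the ceiling of 3100 dashed. Scores dip to between 59.8 and 127 near 78 kb, with regions at the ceiling on both sides, and fall again after the last ceiling region at 107.4 kb.

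Towards the 3′ end of PCNT the lists differed more. Region 19, at 47841884 to 47842038, had the widest spread of the recurrent regions, with 1106 in MeRIP 1, 893 in MeRIP 2 and 329 in MeRIP 3, a 3.37-fold range. Region 22, at 47848309 to 47848504, had 853, 2384 and 2036, and region 24, at 47855817 to 47856061, had 1760, 689 and 964. MeRIP 1 was highest in regions 19 and 24 and lowest in region 22, so no list led throughout. Region 28, the last, at 47865197 to 47865682, was weak, with 141, 60.3 and 87.0. It was also the only recurrent PCNT region whose edges were not the same to the base in all lists, ending 1 bp earlier in MeRIP 2.

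Of the 6 PCNT regions missing from a list, 4 lay in this 3′ part. Region 21, at 47847536 to 47847709, was found in MeRIP 1 alone with a score of 1317, and region 20, at 47845745 to 47845885, in MeRIP 3 alone with 661. A score this high in a single list is uncommon: of 5877 single-list regions in the series, 340 (5.79%) scored 1000 or more and 553 (9.41%) scored 500 or more. Region 26 had 269 in MeRIP 1 and 223 in MeRIP 3, and region 27 had 244 in MeRIP 1 alone. MeRIP 2 lacked all 6.

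Against the whole series, the recurrent PCNT regions were narrow. Their median width was 215.5 bp, from 103 to 879 bp, against 538 bp for all regions in all 3 lists. Up to 300 bp wide were 15 of 22 (68.2%), against 34.2% of all, and none exceeded 1000 bp, against 31.8% of all. At or above the median score of the list in each of the 3 lists were 15 of 22 (68.2%), against 52.4% of all. Scores were also close between lists: of 15 regions below the ceiling in every list, 10 were within 2-fold (66.7%), against 52.4% of all such regions.

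CEP250 resembled PCNT in its many narrow, recurrent regions. Of its 15 regions in all 3 lists, 11 were up to 300 bp wide, with a median of 194 bp, and 12 were at or above the list's median score in every list. The regions formed chains of 7 and 8, since 11.2 kb separated region 9 from region 10. In the series 56 of 10843 chains held 7 regions or more, but 8299 were single regions and 210 held 5 or more. The chain of 8 ended 1 bp before the end of the interval. RefSeq on GRCh38 gives the gene a length of 64116 bp against 56825 bp here, but the nearest region downstream on the strand lay 187.6 kb away, so no listed peak fell in a longer 3′ end.

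CEP250 had 3 regions at the ceiling in every list, and its widest region was among them. Region 14, on chromosome 20 at 34090218 to 34092833, was 2616 bp wide. The others were the narrower region 8 at 34065693 to 34065926 and region 13 at 34085548 to 34085896. Region 1, at 34043223 to 34043572, lay 243 bp inside the interval and was weak, with 114, 115 and 198 in MeRIP 1, 2 and 3. Region 18, the last, at 34099192 to 34099803, had 1978, 3100 and 3083. CEP250 thus ended in a strong region, and PCNT in one that stood at 141 or less in every list.

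Among the recurrent CEP250 regions, the one with the lowest score and the most variable one were neighbours near the 3′ end. Region 17, at 34097827 to 34097883, was only 57 bp wide and had 66.4, 158 and 159 in MeRIP 1, 2 and 3. Region 16, at 34096772 to 34096873, had 949, 2177 and 437, a 4.98-fold range. The 3 regions of CEP250 that were missing from lists were all weak and in 1 list each: region 3 with 88.7 in MeRIP 3, region 5 with 78.2 in MeRIP 2 and region 11 with 64.2 in MeRIP 1. CEP250 had thus 16 peaks in each list, with a different unshared peak in each.

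CEP350 had fewer and weaker regions, in 2 groups separated by a long gap. Of its 7 regions in all 3 lists, 5 began 41.8 to 65.2 kb and 2 began 137.8 and 140.8 kb into the interval. The 71.6 kb between these groups held only region 11 (263 in MeRIP 1 and 118 in MeRIP 3). None was at the ceiling in every list, and 3 were at or above the list's median score in each. The strongest was region 4, on chromosome 1 at 179965688 to 179966310, with 2830, 2977 and 1664 in MeRIP 1, 2 and 3. Region 10, at 179989084 to 179990144, was 1061 bp wide and had 1363, 2170 and 1900.

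The widest CEP350 region was also the one on which the lists differed most. Region 12, at 180061749 to 180063751, spanned 2003 bp and had 72.6 in MeRIP 1, 169 in MeRIP 2 and 509 in MeRIP 3, a 7.01-fold range and the largest among the 35 member regions below the ceiling. Region 13, the last, at 180064658 to 180065065, had the lowest score among the recurrent regions of CEP350, with 65.8, 179 and 72.2. In regions 6, 7 and 8 MeRIP 1 was the highest list instead: region 7, for instance, had 418, 366 and 138. Only 2 of 7 regions were within 2-fold, against 52.4% of all regions below the ceiling.

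The first CEP350 region, at 179923908 to 179924277, was found in 2 lists, with 277 in MeRIP 1 and 211 in MeRIP 2. Region 3 was found in 2 lists with 83.7 in MeRIP 1 and 111 in MeRIP 3. In 1 list alone were region 2 (71.7, MeRIP 3), region 5 (61.5, MeRIP 1) and region 9 (100.1, MeRIP 1). Apart from the 5′ region and region 11, these regions stood at 111 or less where they were found.

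AKAP9, which shares its targeting domain with PCNT, had only 3 regions in all 3 lists over the longest interval. Region 8, on chromosome 7 at 91726003 to 91726671, was at the ceiling in all 3 lists. Region 2, at 91630162 to 91632549, was 2388 bp wide and had 661, 1823 and 809 in MeRIP 1, 2 and 3, and the 5′ region 1, at 91570189 to 91570461, had 321, 522 and 778. No gap between these was under 59.7 kb, so none chained, whereas the median gap was 3.69 kb in PCNT. The strong region 8 ended 13316 bp before the end of the interval, and nothing was listed after it.

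Between AKAP9 regions 2 and 8 lay 5 that were missing from a list. Region 6, at 91708393 to 91709466, had 225 in MeRIP 1 and 194 in MeRIP 2. The other 4 were in 1 list each: region 3 (123) and region 7 (169) in MeRIP 1, and region 4 (131) and region 5 (71.0) in MeRIP 2. MeRIP 3 thus listed none of the 5.

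**Figure D3:**
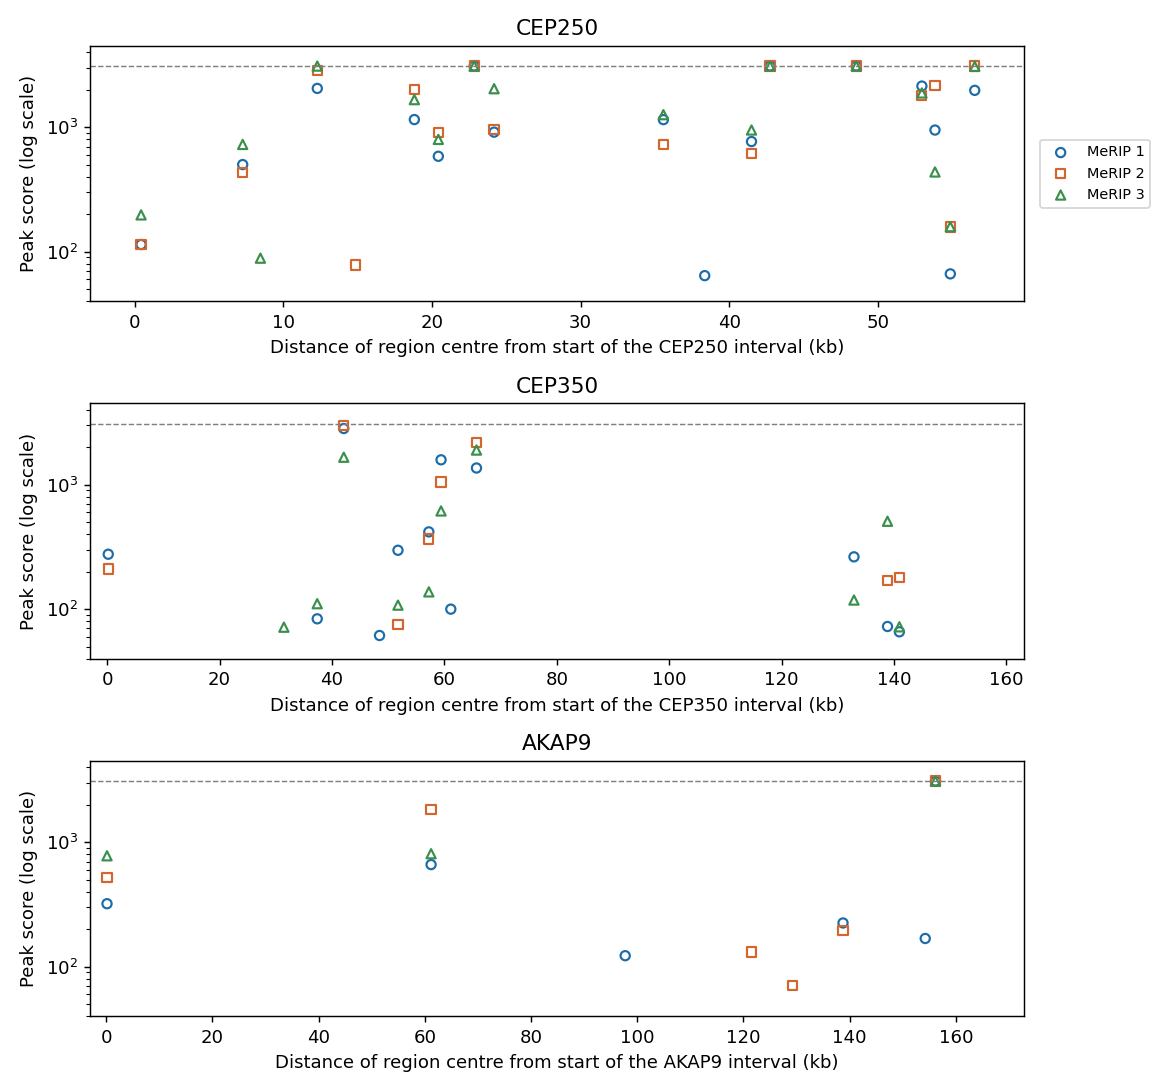
Score of every peak (y axis, log scale) of CEP250, CEP350 and AKAP9 against the distance of its region's centre from the start of the interval (x axis, kb), with 1 symbol per list and the ceiling of 3100 dashed. CEP250 has regions near both ends of its interval and between them, with a longest gap of 11.2 kb that holds no peak. The CEP350 regions found in all lists form 2 groups. AKAP9 reaches the ceiling in all lists only at its region near 156 kb.

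PCM1 and CEP290 were nearly bare. The single PCM1 region lay on chromosome 8 at 17780366 to 17780697, 6 bp inside the 5′ end of a 105.1 kb interval, and scored 71.6, 245 and 344 in MeRIP 1, 2 and 3. In MeRIP 1, where it was weakest, it began 61 bp later, at 17780427. CEP290 had 1 region in MeRIP 1 alone, on chromosome 12 at 88482809 to 88483264, with a score of 82.9. A transcript that is scarce and one that is abundant but little methylated cannot be told apart here.

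Edges of the recurrent regions were the same to the base in nearly all cases. Each of the 48 had 1 peak in each list, and in 46 (95.8%) both edges were the same in all 3, against 72.7% of all such regions. The exceptions were the last PCNT region and the PCM1 region. Much of this went with width: identical edges were found in 29 of 29 member regions of up to 300 bp, against 96.4% of all regions of that width. Among regions over 1000 bp, all 4 members had identical edges, against 41.2% of all. Of the 46, 25 (54.3%) had a width that is a multiple of 3, against 37.9% of all regions with identical edges, with 10 of 21 in PCNT, 9 of 15 in CEP250, 3 of 7 in CEP350 and 3 of 3 in AKAP9.

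**Figure D4:**
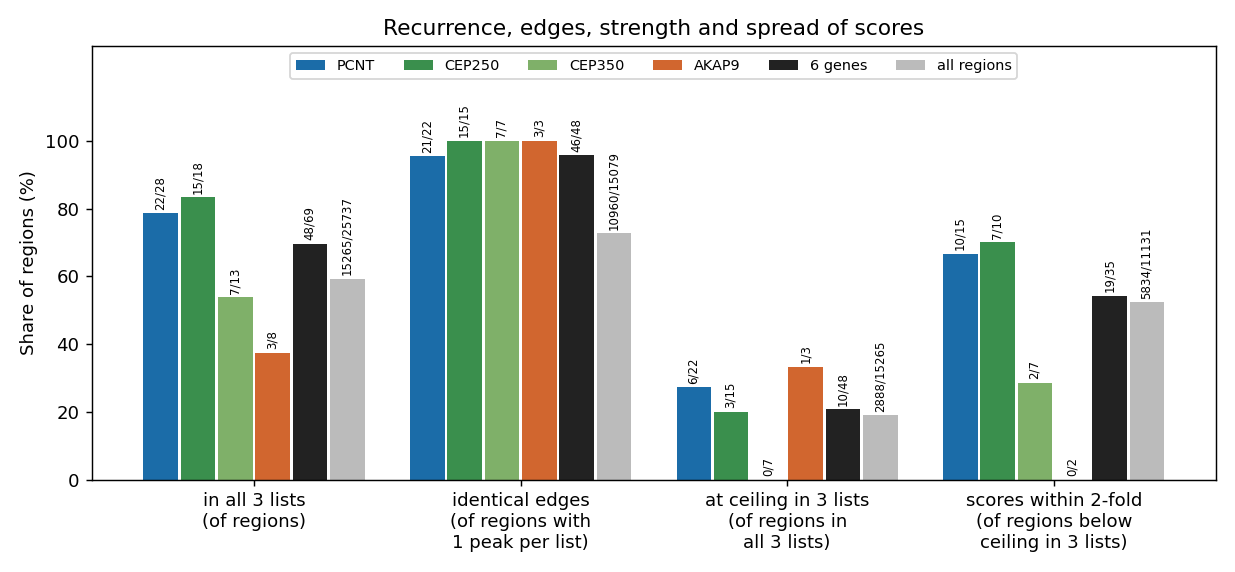
Share of regions (y axis, %) in all 3 lists, with identical edges, at the ceiling in all 3 lists, and with scores within 2-fold, for 4 genes, all 6 genes and all regions of the series, with the counts above the bars. Identical edges stand at 95.5% or more in each of the 4 genes against 72.7% of all regions, while CEP350 and AKAP9 lie below the series in recurrence and in closeness of scores.

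Wide regions tended to be stronger in PCNT and CEP250, as in the series; the other genes had too few regions for this measure. Spearman's rho between width and the lowest score of the 3 lists was 0.53 across the 22 recurrent regions of PCNT and 0.51 across the 15 of CEP250, against 0.44 across all 15265. These are descriptions across regions of the same libraries, which share depth. Over the 6 genes together, 10 of 48 recurrent regions (20.8%) reached the ceiling throughout, a share near the 18.9% of the series. Without PCNT it was 4 of 26 (15.4%), below the series. By width class, of regions of up to 300 bp found in all 3 lists, 3 of 29 (10.3%) were at the ceiling in every list, against 4.39% of all. Of wider ones up to 1000 bp it was 6 of 15, against 17.4% of all. Over 1000 bp it was 1 of 4, against 36.2% of all, and the CEP350 region of 2003 bp had a lowest score of 72.6.

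**Figure D5:**
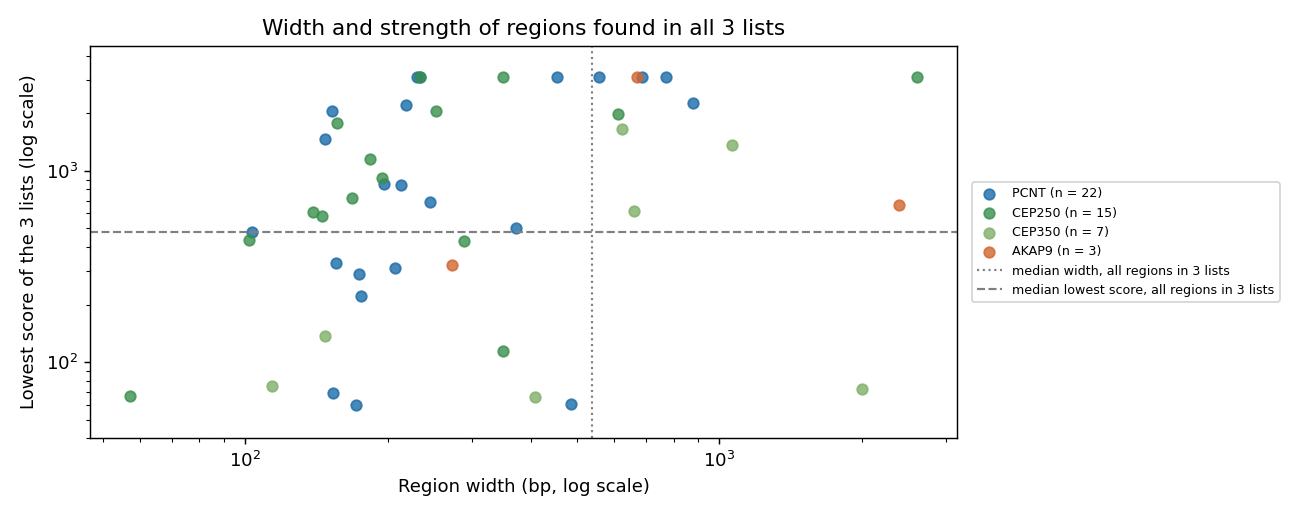
Width of each region in all 3 lists (x axis, bp, log scale) against the lowest score of its 3 lists (y axis, log scale) for PCNT, CEP250, CEP350 and AKAP9. The dotted and dashed lines mark the medians of all regions in all 3 lists, 538 bp and 480; most PCNT and CEP250 points lie left of the dotted line.

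The lists were compared over the 6 genes together. The median score of member peaks was 635 in MeRIP 1, 893 in MeRIP 2 and 788 in MeRIP 3, and each was above the median of all peaks of its list, which was 420, 422 and 443. The mean of the medians was 772 ± 130 for the members and 428 ± 13 for all peaks (SD, n = 3 lists). Over 3 lists a two-sided exact sign test cannot give a p under 0.25, and none was run. By gene, the mean of the 3 medians was 1080 ± 281 in PCNT, 1296 ± 218 in CEP250, 480 ± 288 in AKAP9 and 229 ± 87.8 in CEP350. PCNT and CEP250 differed by less than the SD of either, and AKAP9 and CEP350 by less than the SD of AKAP9. These SDs do not use the pairing of genes by list. Within lists, PCNT and CEP250 were nearly equal in MeRIP 1 (1055 against 1050) and MeRIP 2 (1373 against 1374). They parted in MeRIP 3 (812 against 1464). AKAP9 was above CEP350 in every list, but narrowly in MeRIP 1 (273 against 270). The AKAP9 median in MeRIP 3, its highest, rests on only 3 peaks. The lowest of the medians of PCNT and CEP250, 812 for PCNT in MeRIP 3, lay just above the highest of AKAP9 and CEP350, 809 for AKAP9 in MeRIP 3.

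Differences between lists went in different directions from gene to gene. For CEP250, MeRIP 3 was above MeRIP 1 in 9 of 11 regions below the ceiling in both, with a median log2 ratio of 0.53. For CEP350 the median was -0.77 over 9 regions, 4 of them higher in MeRIP 3, and for PCNT it was -0.21 over 17 regions. All regions of the series had a median of -0.05 for this pair of lists. The SD of the log2 ratio was 0.66 in CEP250, 1.42 in CEP350 and 0.68 in PCNT, against 1.04 for all regions. It gives the spread of single regions and not the uncertainty of a median. For MeRIP 2 over MeRIP 1 the medians were 0.07 in CEP250, -0.06 in CEP350 and -0.19 in PCNT, against -0.15 for all regions. For MeRIP 3 over MeRIP 2 they were 0.36, -0.77 and 0.04, against 0.11. Whether the lists differ in these genes was not tested.

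Peak numbers in the names gave a further reading of how the lists were made. Numbers rose with position along each chromosome without exception in all 3 lists, so a number absent between listed peaks belongs to no peak of the list. From the first to the last PCNT peak, 26 of 33 numbers (78.8%) were listed in MeRIP 1, 22 of 29 (75.9%) in MeRIP 2 and 26 of 38 (68.4%) in MeRIP 3. CEP250 had 16 of 22, 16 of 19 and 16 of 20 listed, CEP350 12 of 18, 8 of 17 and 10 of 15, and AKAP9 6 of 17, 6 of 18 and 3 of 15. Over whole lists the shares were 22.0%, 26.6% and 26.7%. These are not like measures: the numbers of a gene were counted between listed peaks, so both ends are listed by definition. The genes were also chosen with results of these data known, whereas the whole-list shares take in every number. Whether an absent number lay on the gene's strand or in an exon was not tested.

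The nearest regions outside the intervals were not always further off than gaps within a gene. The longest gap between recurrent regions was 20.7 kb within PCNT and 71.6 kb within CEP350. On the plus strand, 13.2 kb after the end of PCNT, lay a region in all 3 lists with scores of 187, 404 and 227, and the nearest before it was 26.4 kb away. For the other genes the nearest region on the same strand lay 35.2 kb or more from the interval.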

How the data were processed

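Peak lists of 3 MeRIP-seq repeats in HEK293T cells were used, each made from 1 IP and 1 input library. Each peak's score is the authors' deposited value, and nothing was normalised between lists. Per the submitters' processing notes, cutadapt 1.9.3, HISAT2 2.0.4 and build hg19 were used; peak names carry the word MACS, whose version and settings, like the choice of listed peaks, no source used here gives. Peaks were called per repeat. Coordinates are hg19, counted from 1.

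Over the whole table, peaks of 1 strand that overlapped by 1 bp or more were joined into regions, and the highest score per list was kept, with scores above 3100 set to 3100. Members were peaks centred in the 6 intervals on the gene's strand. The members, lists and measures were chosen with earlier results of these data known. Within a gene, the regions named were the first, the last, the widest, the highest, the lowest and the most variable, those missing from a list, and some neighbours chosen after their values were seen. Shares stand beside those of all regions, and no test was run. The code was checked on simulated lists. Alternatives covered overlap, score, width, strand, interval rule, chain gap and leaving out each repeat. The work was done with pandas 2.3.3, NumPy 2.4.6 and SciPy 1.17.1 in Python 3.11.15, and plots with Matplotlib 3.10.9. Read depth is unknown.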

Additional observations from a re-analysis of the deposited data

How the results depend on the processing

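No paired analysis was possible because a list holds 1 score per peak for IP and input of a repeat together, so a replicate block could not be fitted. Of 59 alternative values, 54 stayed within 1.5 times the main count or, for the median score, within 1 SD, and 5 moved. Several of the 54 could hardly differ, since each recurrent member region had 1 peak per list, mostly with identical edges. Values with 50% reciprocal overlap, the other interval rules, strand ignored or the mean of a region's peaks equalled the main ones. The number of member regions in all 3 lists, 48, ran from 48 to 52 without 1 repeat, with 22 to 24 in PCNT and 26 to 28 in the other 5 genes. A region then needed a peak in only 2 lists, so these counts could hardly fall. The member shares without MeRIP 1, 2 and 3 were 78.7%, 78.8% and 76.9%, against 72.2%, 70.0% and 69.7% of all regions. With all 3 lists the shares were 69.6% and 59.3%. Identical edges ran from 47 to 51, regions at the ceiling stayed at 10, the mean of the median scores ran from 712 to 841, and the PCNT chain had 16 or 17 regions. The chain fell to 4 regions with a largest gap of 5 kb and to 8 with scores of 100 or more, which drop the weak regions 14, 15 and 28; with a gap of 20 kb it had 21, of which 1 lies outside the interval. Leaving out low scores also raised the mean of the medians, to 980 with scores of 100 or more and 1885 with scores at or above the list's median, by construction. At the list's median, 17 of 20 regions of the other 5 genes (85%) and 15 of 20 of PCNT (75%) were in all 3 lists, against 63.9% of all regions. With all scores the order was the other way, at 63.4% for the other 5 genes and 78.6% for PCNT. The count of the other 5 genes thus moved from 26 to 17, and that of all 6 fell from 48 to 32. The chain without a repeat and with scores of 100 or more was chosen after seeing the data. With read depth unknown, absence from a list does not show absence of m6A.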
